A study of Mus musculus with 23 samples.

Results

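The 9 genes of the S100 family considered are S100a1, S100a3, S100a4, S100a6, S100a10, S100a11, S100a13, S100a14 and S100a16. They are a list of names, with no threshold on measured values, that leaves out S100a8, S100a9, S100b and several other relatives, and all 9 were found among the 54347 genes of the deposited table. S100 proteins are small calcium-binding proteins with a pair of EF-hand motifs that mostly act as dimers. On binding calcium they change shape and attach to partner proteins such as annexins, myosin and ion channels, and some are also released from cells and bind surface receptors such as RAGE, the product of Ager. Individual members are known for cell-type preferences: S100a4 for fibroblasts, S100a1 for muscle, S100a14 for epithelia and S100a3 for hair.

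RNA was measured in 23 libraries of cells from mouse lower incisors at postnatal day 2, from the labial cervical loop, the epithelial fold that holds the stem cells of the continuously growing tooth together with the tissue around it. All mice carried Sox2-GFP, a green fluorescent reporter under the endogenous Sox2 promoter, and the groups differed in the sorted fraction and in the batch. Sox2-negative and Sox2-positive cells of batch A gave 6 libraries each, and those of batch B gave 4 and 7. The batches were run on different days with different mice, but the labels do not say whether libraries of 1 batch came from separate mice, so p-values measure only the spread between libraries, which may be technical. The Sox2-negative fraction is whatever remained after the sort and is not a single cell type.

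Library totals ran from 2305778 to 9541443 estimated counts (median 4831091), so that 3 counts correspond to between 0.314 and 1.30 CPM before scaling. CPM is the count divided by the library total, and all levels given are also scaled between libraries by TMM. Sox2 had 0 to 10 counts in the Sox2-negative libraries and 14 to 121 in the Sox2-positive ones, and its CPM did not overlap between the populations in either batch. All 6 epithelial markers were higher in Sox2-positive cells in both batches and all 6 mesenchymal markers were lower. Of 5 glial markers, 5 were called higher in Sox2-positive cells of batch A and 4 in batch B, and none lower. Their sums were 7.22 to 31.5 CPM in Sox2-negative and 952 to 1235 in Sox2-positive libraries of batch A. In batch B they were 18.3 to 27.0 and 50.4 to 82.4 CPM. The Sox2-positive fraction thus did not carry epithelial markers alone. The 6 mesenchymal markers summed to 9840 to 12719 CPM in the Sox2-negative libraries, to 1203 to 1762 in Sox2-positive libraries of batch A and to 586 to 667 in those of batch B. Twist1 was at 0 in all 13 Sox2-positive libraries. Neutrophil markers summed to at most 1.33 CPM in any Sox2-positive library, while the 9 S100 genes together reached 484 to 692 CPM there. In a bulk sample, fewer cells of a type and less RNA per cell cannot be told apart. Batch B libraries numbered 1 and 2 resembled each other more than the rest in both populations. Across genes, their log2 CPM correlated at r = 0.95 in Sox2-negative and 0.98 in Sox2-positive cells, against 0.91 to 0.92 and 0.95 to 0.96 with the higher-numbered libraries of their group. Their summed epithelial markers were 2720 and 2593 CPM in Sox2-positive cells, against 4084 to 4419 in the other 5, so results that rest on them are also given without them.

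All 9 genes lie on chromosome 3 of GRCm38 (mm10), in 2 blocks. The first, at chr3:90511034-90624181, spans 113 kb and holds, in order, S100a1, S100a13, S100a14, S100a16, S100a3, S100a4 and S100a6. The second holds S100a11 (chr3:93520488-93526287) and S100a10 (chr3:93555080-93564643), 2.90 Mb further on. All are on the plus strand except S100a1, which faces S100a13 across 42 bases. Between the outermost members lie 66 other protein-coding genes, of which 5 were expressed enough to be tested over both batches. Tchh, a hair sheath protein gene, was higher in Sox2-positive cells there, and S100a2, S100a8 and S100a9 were lower.

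**Figure D1:**
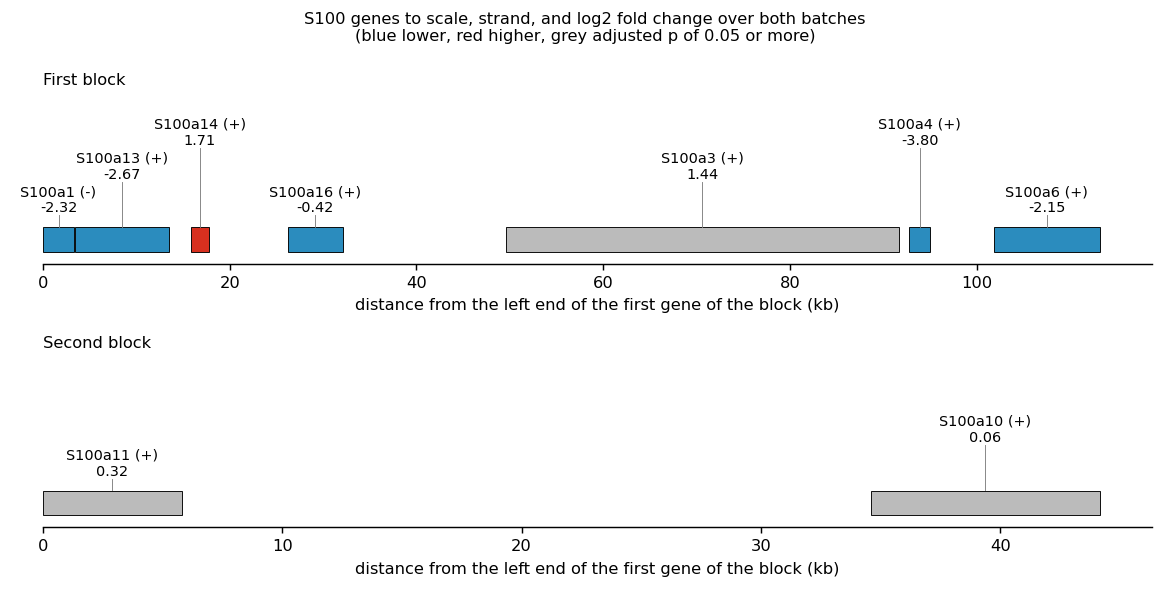
Positions of the 9 genes to scale, as distance in kb from the left end of the first gene of each block, with the strand in parentheses and the log2 fold change of Sox2-positive against Sox2-negative cells over both batches. Blue bars are the 5 genes that were lower, the red bar is S100a14, which was higher, and the 3 grey bars did not pass the test; S100a4 and S100a6 sit next to each other at the right end of the first block.

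The sequence upstream of 3 members and the interval between another pair are shown. They belong to the neighbours S100a4 and S100a6 and the divergent pair S100a1 and S100a13, all lower in Sox2-positive cells. The remaining sequence is that of S100a11, the most abundant member per kb of exon. Sequences are from RefSeq on GRCm38.p6, on the plus strand, and stop before the first annotated exon; 7 of the 9 genes had a promoter entry in the table used. The intervals are chr3:90603520-90603769 for S100a4, chr3:90612644-90612881 for S100a6, chr3:93520246-93520487 for S100a11 and chr3:90514393-90514434 for the gap between S100a1 and S100a13. Capitals mark matches on either strand to 4 short motifs. The TATA box was searched as TATAAA. The GC box was searched as GGGCGG. The CCAAT box, with the letters of its name, reads ATTGG on the other strand. The AP-1 motif was searched as TGANTCA, and no printed match overlaps another.
S100a4: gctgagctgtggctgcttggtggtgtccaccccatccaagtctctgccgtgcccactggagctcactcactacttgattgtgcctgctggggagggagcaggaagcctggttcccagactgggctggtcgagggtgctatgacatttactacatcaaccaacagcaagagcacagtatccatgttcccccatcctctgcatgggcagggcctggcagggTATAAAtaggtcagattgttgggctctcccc
S100a6: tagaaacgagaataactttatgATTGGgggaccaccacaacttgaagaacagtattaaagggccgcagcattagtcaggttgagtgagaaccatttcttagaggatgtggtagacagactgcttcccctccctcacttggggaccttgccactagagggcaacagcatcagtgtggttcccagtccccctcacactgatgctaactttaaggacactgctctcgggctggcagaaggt
S100a1 to S100a13: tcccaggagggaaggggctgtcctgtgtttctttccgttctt
S100a11: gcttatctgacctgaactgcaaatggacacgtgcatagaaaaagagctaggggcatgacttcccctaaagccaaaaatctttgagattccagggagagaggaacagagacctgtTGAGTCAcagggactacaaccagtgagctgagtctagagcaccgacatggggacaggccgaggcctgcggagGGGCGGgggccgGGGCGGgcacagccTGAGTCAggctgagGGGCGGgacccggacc
S100a4 carries 1 TATA box close to its start, S100a6 carries 1 CCAAT box, and S100a11 carries 3 GC boxes and 2 AP-1 motifs. None of the 4 motifs occurs in the 42 bases between S100a1 and S100a13. Among the 32851 promoter windows of the table, the 250 bases before the start hold the TATA box in 12.4%, the GC box in 32.7%, the CCAAT box in 33.9% and the AP-1 motif in 6.75%. Of the 11 windows that belong to members, 2, 3, 2 and 2 hold them. A match describes the letters only and is not a measured binding site.

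Levels were first ordered within each group after division by the length of the annotated exons, in CPM per kb. S100a11, a partner of annexin A1, was the most abundant member in all 4 groups, and its lowest library was above the highest library of the next member in each. Its mean ± SD was 563 ± 55.5 CPM per kb in batch A Sox2-negative cells, 471 ± 71.7 in batch A Sox2-positive cells, 312 ± 117 in batch B Sox2-negative cells and 652 ± 66.6 in batch B Sox2-positive cells. S100a10 came second in 3 groups, with 136 ± 23.6, 109 ± 7.91 and 136 ± 14.5 CPM per kb in batch A Sox2-negative, batch A Sox2-positive and batch B Sox2-positive cells. In batch B Sox2-negative cells S100a6, at 135 ± 22.9, stood above S100a10, at 94.6 ± 20.3 CPM per kb, but their libraries overlapped. In Sox2-negative cells the members below S100a11 formed a graded series, in which neighbours from S100a10 or S100a6 down to S100a4 (batch A) or S100a13 (batch B) overlapped. In Sox2-positive cells S100a10 stood apart from every member below it, and S100a4 had dropped to 6.90 ± 2.56 CPM per kb in batch A and to 2.09 ± 1.13 in batch B, near S100a14 at 4.98 ± 2.73 and 4.92 ± 1.78. S100a3 had the lowest mean everywhere, at or below 0.335 CPM per kb, over an exon length of 5.66 kb. Its libraries overlapped those of the next member in every group but batch B Sox2-negative cells. The order depends on the division by length. In CPM alone, S100a3 was above S100a4 in batch B Sox2-positive cells, at 1.90 against 1.22. In batch B Sox2-negative cells S100a6 was above S100a11, at 185 ± 31.4 against 159 ± 59.8 CPM, with overlapping libraries. Summed over the 9 genes, levels were 906 ± 82.2 CPM in batch A Sox2-negative cells, 544 ± 51.0 in batch A Sox2-positive cells, 651 ± 64.6 in batch B Sox2-negative cells and 617 ± 53.5 in batch B Sox2-positive cells, so that the populations overlapped in batch B and not in batch A.

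**Figure D2:**
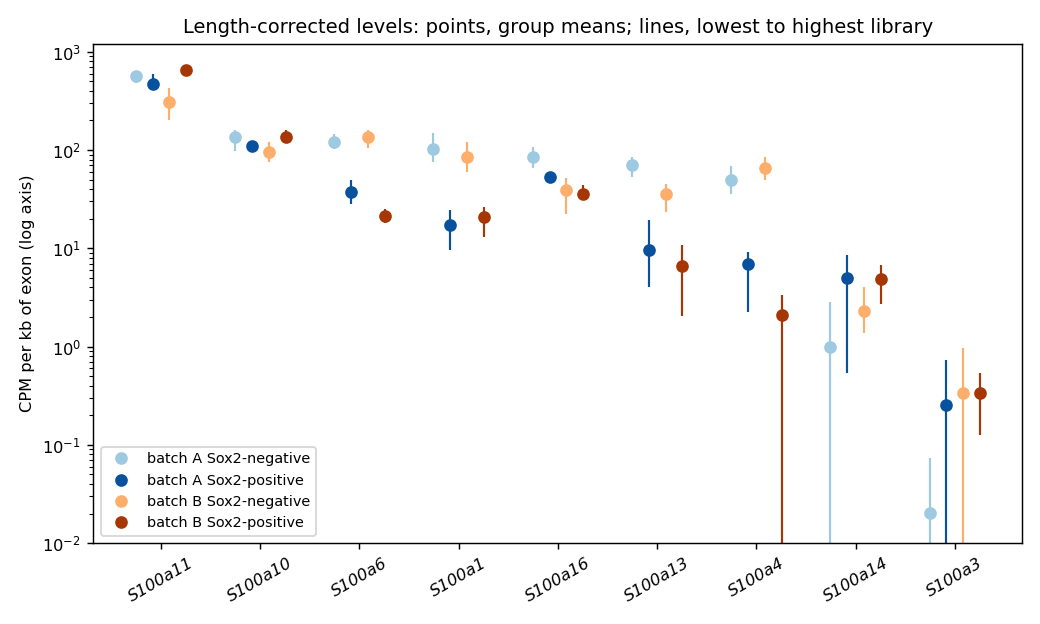
Mean level of each gene per kb of exon (log axis) in the 4 groups, with a line from the lowest to the highest library; lines that reach the lower edge of the plot include a library at 0. S100a11 lies above all other genes in every group, while S100a6, S100a1, S100a13 and S100a4 drop in Sox2-positive cells.

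The question of the sort is which genes differ between Sox2-positive and Sox2-negative cells. Differences were tested with edgeR's quasi-likelihood test, and a gene was called at a Benjamini-Hochberg adjusted p under 0.05 over all genes tested. Over both batches, with batch as a covariate, 6 of the 9 genes were called, 1 higher (S100a14) and 5 lower (S100a1, S100a4, S100a6, S100a13 and S100a16) in Sox2-positive cells. Among all 17190 genes tested 57.5% were called, 24.9% higher and 32.5% lower, so the number of S100 genes called is close to the background. The median log2 fold change of the 9 genes was -0.42, against -0.12 over all genes tested. In batch A alone 8 genes passed the filter on low counts, all but S100a3, and 6 were called, 1 higher (S100a14) and 5 lower (the same 5 as over both batches), beside 43.4% of 14296 genes called, 19.3% being higher and 24.2% lower. All 9 passed the filter in batch B alone, where 7 were called, 3 higher (S100a10, S100a11 and S100a14) and 4 lower (S100a1, S100a4, S100a6 and S100a13), beside 54.7% of 15765 genes, 27.1% higher and 27.6% lower. The members' median was -1.17 in batch A and -0.05 in batch B, against -0.04 and 0.01 over all genes.

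**Figure D3:**
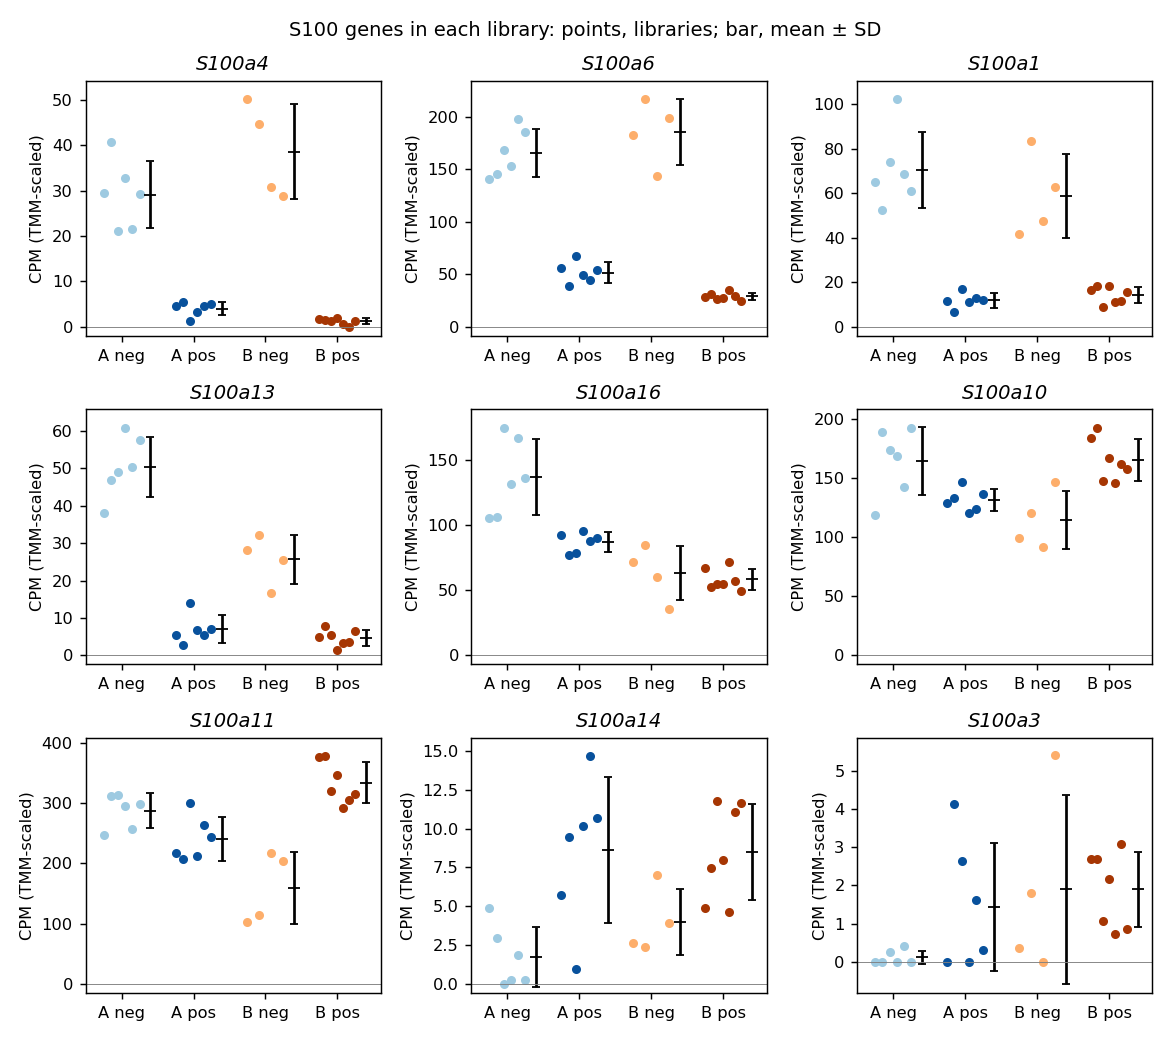
CPM (TMM-scaled) of each gene in each library of the 4 groups (A, batch A; B, batch B; neg, Sox2-negative; pos, Sox2-positive); points are libraries in the order of their numbers, and bars are the mean ± SD. In both batches all Sox2-positive libraries lie below all Sox2-negative ones for S100a4, S100a6, S100a1 and S100a13, and in batch B all lie above for S100a11.

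A group of 4 genes was lower in Sox2-positive cells in both batches with no overlap between the populations. S100a4, also called fibroblast-specific protein, binds non-muscle myosin and is a common marker of fibroblasts. It ran from 21.0 to 40.6 CPM (median 29.4) in batch A Sox2-negative libraries and from 1.31 to 5.37 (median 4.63) in batch A Sox2-positive ones. In batch B the 4 Sox2-negative libraries had 50.1, 44.5, 30.7 and 28.8 CPM, and the Sox2-positive ones 0 to 1.93 (median 1.38), from 0 to 11 counts. The populations were apart in both batches, and the batch B Sox2-positive libraries were at the level of a few counts. Sox2-positive cells differed by a log2 fold change of -3.80 (SE 0.38, adjusted p = 3.04e-09) over both batches, -2.84 (SE 0.40, adjusted p = 3.31e-05) in batch A and -4.86 (SE 0.45, adjusted p = 1.76e-07) in batch B.

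S100a6, or calcyclin, a gene linked to cell proliferation and the neighbour of S100a4, had 141 to 198 CPM (median 161) in batch A Sox2-negative libraries and 38.8 to 67.2 (median 51.8) in Sox2-positive ones. Among batch B libraries, the Sox2-negative ones had 182, 217, 143 and 199 CPM and the Sox2-positive ones 24.6 to 34.7 (median 28.2). All 7 batch B Sox2-positive libraries were below all 6 of batch A, while the Sox2-negative libraries of the batches overlapped. The fold change of S100a6, on the log2 scale, was -2.15 (SE 0.14, adjusted p = 1.16e-12) over both batches, -1.68 (SE 0.16, adjusted p = 4.92e-07) in batch A and -2.61 (SE 0.14, adjusted p = 2.62e-10) in batch B.

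S100a1, a regulator of calcium handling in heart and skeletal muscle, had 52.5 to 102 CPM (median 67.0) in batch A Sox2-negative libraries and 6.62 to 17.1 (median 11.97) in Sox2-positive ones. The batch B Sox2-negative libraries had 41.6, 83.4, 47.5 and 63.0 CPM and the Sox2-positive ones 9.03 to 18.5 (median 15.5). The populations did not overlap and the batches did, within each population. S100a1 differed by a log2 fold change of -2.32 (SE 0.19, adjusted p = 5.82e-11) over both batches. Muscle markers summed to 185 to 347 CPM in batch B Sox2-positive cells and to at most 12.8 in any library of the other groups, while S100a1 was low in the Sox2-positive cells of both batches.

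S100a13 takes part in the release of FGF1 and interleukin 1 alpha without a signal peptide, and its start faces that of S100a1. It had 38.0 to 60.9 CPM (median 49.7) in batch A Sox2-negative libraries and 2.86 to 13.9 (median 6.19) in Sox2-positive ones. In batch B the Sox2-negative libraries had 28.2, 32.1, 16.7 and 25.6 CPM, all below those of batch A, and the Sox2-positive ones 1.45 to 7.75 (median 4.87). For S100a13 the log2 fold change was -2.67 (SE 0.26, adjusted p = 1.69e-09) over both batches, -2.85 (SE 0.35) in batch A and -2.37 (SE 0.37) in batch B. S100a1 and S100a13, the divergent pair, correlated over the 23 libraries at r = 0.91 and, after the group means were removed, at r = 0.40, so most of their likeness lies in the difference between groups. S100a4 and S100a6 correlated at r = 0.92 and, after the group means were removed, at r = -0.37.

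The same 4 genes shared their lower level in Sox2-positive cells with markers of several cell types that the sort left in the Sox2-negative fraction. There the macrophage markers summed to 798 to 954 CPM in batch A and 155 to 210 in batch B, against at most 14.4 in any Sox2-positive library. The neutrophil markers summed to 3456 to 4187 and 493 to 541 CPM, and the endothelial markers to 572 to 824 and 124 to 209. S100a4 and S100a6 were at 29.1 ± 7.34 and 165 ± 22.9 CPM in batch A Sox2-negative cells (SD, n = 6) and at 38.5 ± 10.4 and 185 ± 31.4 in batch B (n = 4). S100a1 and S100a13 were at 70.6 ± 17.1 and 50.4 ± 8.11 CPM in batch A Sox2-negative cells and at 58.8 ± 18.7 and 25.7 ± 6.52 in those of batch B. Between the Sox2-negative groups, the macrophage, neutrophil and endothelial sums were lower in batch B. S100a4 and S100a6 were at log2 differences of 0.40 and 0.16 there, S100a1 at -0.27 and S100a13 at -0.98, and none was called. Mesenchymal markers were at similar sums in both Sox2-negative groups, but these sums were mostly Col1a1, Col1a2 and Col3a1. Means of the rest of that list were higher in the later-lettered batch: Pdgfra at 324 against 129 CPM, Prrx1 at 230 against 116 and Twist1 at 47.5 against 25.4. Of the 6 mesenchymal markers, 1 was called higher between these groups and none lower. The part of these cell types in the population differences was not tested.

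S100a16, a widely expressed member, was lower in Sox2-positive cells of batch A and did not pass the test in batch B. It had 105 to 174 CPM (median 134) in batch A Sox2-negative libraries and 77.1 to 95.1 (median 88.7) in Sox2-positive ones, which did not overlap. In batch B the values were 71.7, 84.6, 60.1 and 35.7 CPM and 49.6 to 71.2 (median 54.7), which overlapped throughout. On the log2 scale the fold change was -0.65 (SE 0.15, adjusted p = 0.00280) in batch A, -0.05 (SE 0.20, adjusted p = 0.855) in batch B and -0.42 (SE 0.14, adjusted p = 0.0117) over both. The difference between the batches' fold changes was 0.54 (SE 0.26, adjusted p = 0.232) and did not pass. The call over both batches was lost without batch B Sox2-negative replicate 2 (-0.32, adjusted p = 0.0668), without batch B libraries 1 and 2 (-0.34, adjusted p = 0.0906), under total-count scaling (-0.29, adjusted p = 0.0720) and with no filter (-0.34, adjusted p = 0.0768).

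S100a14, known from epithelia, was the member that was higher in Sox2-positive cells in both batches, at low levels. It had 0 to 4.88 CPM (median 1.07) in batch A Sox2-negative libraries and 0.938 to 14.7 (median 9.83) in Sox2-positive ones. In batch B the Sox2-negative libraries had 2.60, 2.39, 6.99 and 3.90 CPM and the Sox2-positive ones 4.65 to 11.8 (median 7.98). The populations of either batch overlapped. Its log2 fold change was 1.71 (SE 0.52, adjusted p = 0.00671) with the batches together, 2.31 (SE 0.88, adjusted p = 0.0427) in batch A and 1.16 (SE 0.45, adjusted p = 0.0391) in batch B. Over both batches the call was kept in all 23 fits that left out 1 library (adjusted p 0.00264 to 0.0107). In batch A alone it was lost without any 1 of Sox2-negative replicates 3 to 6 or Sox2-positive replicates 1, 2, 4, 5 and 6 (adjusted p up to 0.0874), and in batch B alone without any 1 of Sox2-negative replicates 1, 2 and 4 or Sox2-positive replicates 2, 3, 4, 6 and 7 (up to 0.103). The batch B value was 0.82 (adjusted p = 0.245) without batch B libraries 1 and 2 and did not pass. The batch A call was also lost with limma-voom (2.76, adjusted p = 0.0645) and with no filter (2.38, adjusted p = 0.0579), and the batch B call with no filter (1.21, adjusted p = 0.0737).

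S100a3, a protein of the hair cuticle, was at the limit of detection. It had 0 to 2 counts in batch A Sox2-negative libraries, 0 to 23 in batch A Sox2-positive ones, 0 to 32 in batch B Sox2-negative ones and 2 to 19 in batch B Sox2-positive ones, and was at 0 in 4, 2, 1 and 0 libraries. Its level reached 5.42 CPM in batch B Sox2-negative replicate 4. Its difference was 1.44 on the log2 scale (SE 0.86, adjusted p = 0.154) over both batches and 0.12 (SE 0.83, adjusted p = 0.915) in batch B. Without that library it was 2.40 (adjusted p = 0.0214) over both batches. The gene overlaps S100a2 and Gm42674 on its own strand and Gm23464 on the other, so its counts could include reads of these genes.

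S100a10 and S100a11, the 2 members of the second block, were higher in Sox2-positive cells of batch B and did not pass the test in batch A. S100a10, or p11, is the light chain of annexin A2 and, unlike its relatives, does not bind calcium. It had 119 to 193 CPM (median 171) in batch A Sox2-negative libraries and 120.2 to 147 (median 131) in Sox2-positive ones. In batch B the Sox2-negative libraries had 99.6, 120.3, 92.0 and 147 CPM and the Sox2-positive ones 146 to 193 (median 162), with an overlap at 1 Sox2-negative library. Its log2 fold change was -0.32 (SE 0.13, adjusted p = 0.0653) in batch A, 0.60 (SE 0.14, adjusted p = 0.00205) in batch B and 0.06 (SE 0.13, adjusted p = 0.722) over both. Without batch B libraries 1 and 2 the batch B value was 0.42 (adjusted p = 0.0650), which did not pass, and without batch A Sox2-negative replicate 1 or 5 the batch A value passed (-0.39, adjusted p = 0.0171, and -0.36, adjusted p = 0.0482).

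S100a11 had 247 to 314 CPM (median 297.5) in batch A Sox2-negative libraries and 206 to 301 (median 230.1) in Sox2-positive ones. Of the batch B libraries, the Sox2-negative ones had 102, 113, 218 and 203 CPM and the Sox2-positive ones 292 to 378 (median 319.6). The Sox2-negative libraries 1 and 2 of batch B were the lowest of all 23, and all 4 lay below every Sox2-positive library of that batch. Between populations S100a11 differed by a log2 fold change of -0.25 (SE 0.11, adjusted p = 0.0838) in batch A, 1.13 (SE 0.19, adjusted p = 0.000128) in batch B and 0.32 (SE 0.18, adjusted p = 0.121) over both. Without batch B libraries 1 and 2 it was 0.62 in batch B and kept its call (adjusted p = 0.000528). Without batch A Sox2-positive replicate 3 the batch A value passed (-0.32, adjusted p = 0.0309). Over both batches the value passed without batch A Sox2-positive replicate 2 (0.44, adjusted p = 0.0465), under total-count scaling (0.44, adjusted p = 0.0432), with limma-voom (0.60, adjusted p = 0.00446) and with no filter (0.40, adjusted p = 0.0379). Of the 31-base words of its transcripts, 48.9% also occur in 6 other genes, the pseudogene S100a11-ps among them, so its counts could be split, as could those of S100a4, which shares 49.2% with Gm42674. Adding the counts of those genes changed no call of S100a4, S100a10 or S100a11. Gm42674 had at most 4 counts in any library and S100a11-ps at most 2.

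**Figure D4:**
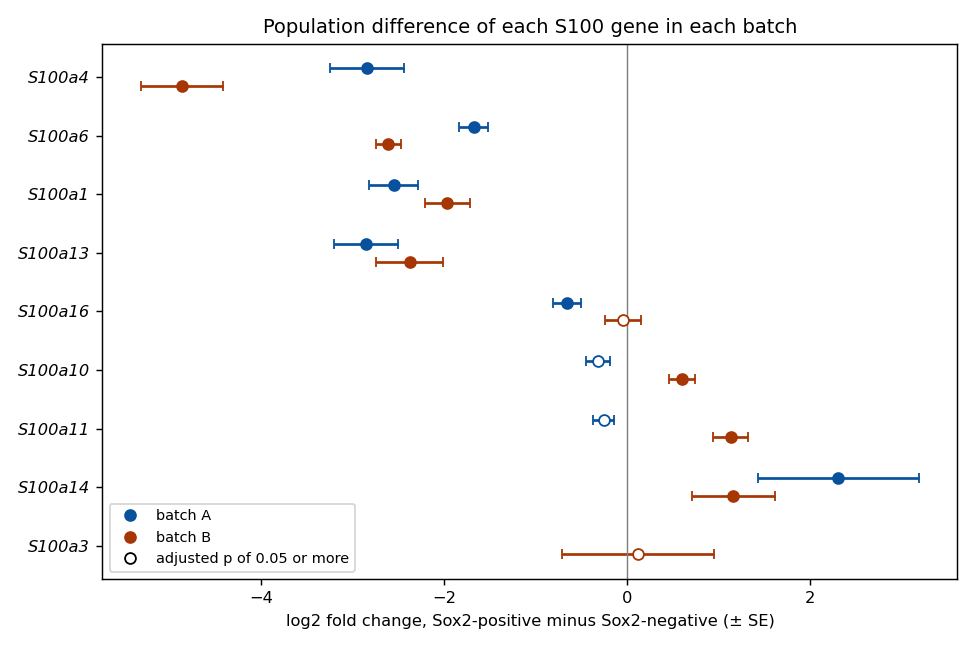
Log2 fold change (± SE) of Sox2-positive against Sox2-negative cells for each gene in batch A (blue) and batch B (red-brown); open symbols did not reach an adjusted p under 0.05, and S100a3 was not tested in batch A. S100a4 and S100a6 lie further left in batch B than in batch A, while S100a10 and S100a11 lie left of 0 in batch A, with open symbols, and right of 0 in batch B.

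Whether the population difference itself changed with batch was tested by the interaction, the log2 fold change in batch B minus that in batch A. Of the 9 genes, 4 were called, 2 upward (S100a10 and S100a11) and 2 downward (S100a4 and S100a6), against 7.04% of 17190 genes, 2.82% upward and 4.22% downward. The median over the 9 genes was 0.41 and over all genes 0.02. The interaction of S100a11 was 1.33 (SE 0.22, adjusted p = 0.000312), that of S100a10 0.85 (SE 0.19, adjusted p = 0.00624), that of S100a6 -0.997 (SE 0.21, adjusted p = 0.00321) and that of S100a4 -2.09 (SE 0.61, adjusted p = 0.0342). S100a1 and S100a13, with interactions of 0.52 (SE 0.36, adjusted p = 0.465) and 0.41 (SE 0.51, adjusted p = 0.734), did not pass. Without batch B libraries 1 and 2 only S100a11 passed (0.83, adjusted p = 0.0128), and S100a10 (0.70, adjusted p = 0.128), S100a6 (-0.91, adjusted p = 0.0678) and S100a4 (-1.956, adjusted p = 0.237) kept their direction. S100a4 also lost its call without any 1 of 7 libraries, namely batch A Sox2-positive replicates 1, 2, 5 and 6, batch B Sox2-negative replicates 1 and 2 and batch B Sox2-positive replicate 5 (adjusted p up to 0.0849), and with no filter (-2.08, adjusted p = 0.0625).

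**Figure D5:**
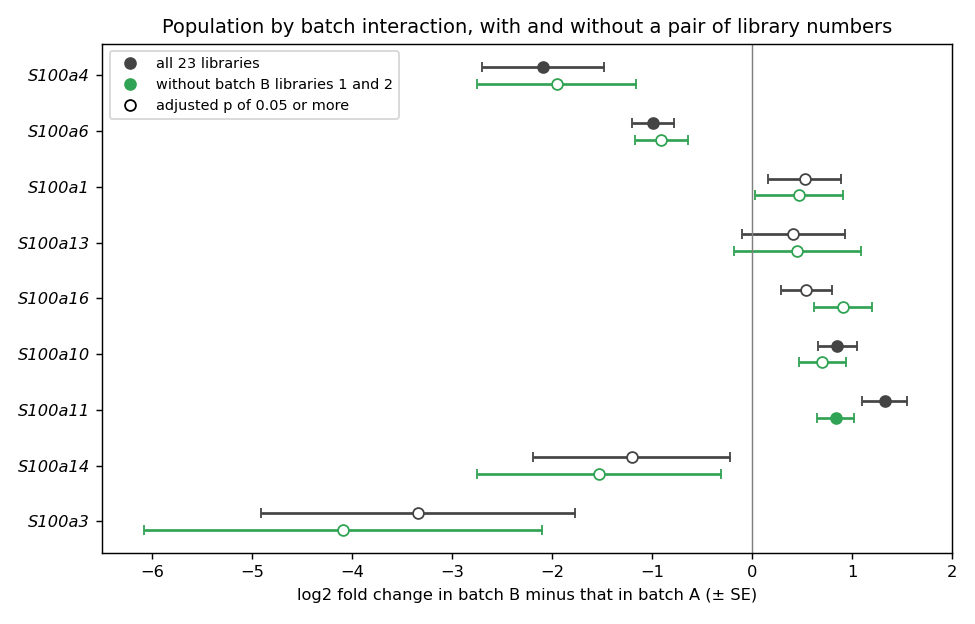
Difference between the batches in the log2 fold change (± SE) for each gene, from all 23 libraries (grey) and without batch B libraries 1 and 2 of both populations (green); filled symbols have an adjusted p under 0.05. The 4 filled grey symbols are S100a4, S100a6, S100a10 and S100a11, and only S100a11 stays filled in green.

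The batches were then compared within each population to see on which side these interactions arose. In Sox2-negative cells 3 genes were called, none higher and 3 lower in batch B (S100a10, S100a11 and S100a16), beside 11.2% of 17190 genes, 5.85% higher and 5.35% lower. In Sox2-positive cells 4 were called, 1 higher (S100a11) and 3 lower (S100a4, S100a6 and S100a16), beside 10.4%, 4.85% higher and 5.54% lower. The members' medians were -0.27 and -0.02, and those of all genes -0.00 and 0.00. Under total-count scaling 661 of the 2049 calls over all genes were higher in batch B in Sox2-negative cells, in place of 1005 of 1924, and 666 of 1880 in Sox2-positive cells, in place of 833 of 1785. These comparisons set days and mice against each other and cannot tell a difference between mice from one between runs.

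In Sox2-negative cells S100a11 was lower in batch B, at a log2 difference of -0.86 (SE 0.17, adjusted p = 0.00134), and S100a16 was at -1.12 (SE 0.20, adjusted p = 0.000368), both with no overlap between the batches. S100a10 was at -0.52 (SE 0.15, adjusted p = 0.0210), a call that was lost without batch B Sox2-negative replicate 1 or 3 (adjusted p up to 0.0994) and with no filter (-0.51, adjusted p = 0.0854). S100a13 was at -0.98 (SE 0.38, adjusted p = 0.101) with no overlap, and passed with DESeq2 (-1.03, adjusted p = 0.0289) and with limma-voom (-0.86, adjusted p = 0.0409). S100a3 was at 3.74 (SE 1.28, adjusted p = 0.0577), from the few counts given above, and passed without any 1 of batch A Sox2-negative replicate 5, batch A Sox2-positive replicates 1 and 4 and batch B Sox2-negative replicate 3 (adjusted p down to 0.0352). Without batch B libraries 1 and 2, S100a11 was at -0.45 (adjusted p = 0.0980) and S100a10 at -0.46 (adjusted p = 0.205), while S100a16 kept its call at -1.51 (adjusted p = 0.000698). The 5 erythroid markers summed to 53424 to 61778 CPM in batch B Sox2-negative libraries and to 977 to 1161 in those of batch A, and all 5 were called higher, while macrophage, neutrophil and endothelial sums were lower as given above. The part of these cells in the S100 differences was not tested.

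In Sox2-positive cells S100a6 was lower in batch B, at a log2 difference of -0.83 (SE 0.14, adjusted p = 0.000159), and S100a4 was at -1.69 (SE 0.43, adjusted p = 0.00993). S100a16 was at -0.58 (SE 0.17, adjusted p = 0.0229), with all 7 batch B libraries below all 6 of batch A, and lost its call without batch A Sox2-positive replicate 4 or batch B Sox2-positive replicate 2 or 7 (adjusted p up to 0.0511) and with no filter (-0.56, adjusted p = 0.0679). S100a11 was at 0.47 (SE 0.14, adjusted p = 0.0345), and lost its call without any 1 of batch A Sox2-positive replicates 1, 2, 4 and 6 or batch B Sox2-positive replicates 1, 2 and 4 (adjusted p up to 0.0835) and under total-count scaling (0.38, adjusted p = 0.109). With batch A replicate 4 or batch B replicate 2 left out, 2 of the 9 genes were called in place of 4. Sums of several marker lists moved between the same libraries. Epithelial markers were at 2692 to 3049 CPM (median 2861) in batch A and 2593 to 4419 (median 4112) in batch B. Of these 6 markers, 2 were called higher in batch B and none lower. Mesenchymal markers were at 1203 to 1762 CPM in batch A and 586 to 667 in batch B, and 3 of the 6 were called lower and none higher. Within that list Col1a1 was at 423 ± 98.2 and 36.0 ± 11.5 CPM, while Col1a2 was at 563 ± 66.7 and 544 ± 40.4 and Pdgfra at 29.3 ± 12.3 and 42.2 ± 7.32. Glial markers were at 952 to 1235 and 50.4 to 82.4 CPM, ameloblast markers at 286 to 341 and 6.53 to 10.1, and muscle markers at 0 to 11.1 and 185 to 347. Their part in the lower S100a4 and S100a6 was not tested.

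Among the other members of the family on the list, S100a5, S100a7a, S100g and S100z, none passed the filter on low counts. S100a2, outside that list, was lower in Sox2-positive cells over both batches (-2.35, SE 0.67, adjusted p = 0.00397) and in batch A (-2.95, SE 0.94, adjusted p = 0.0184), and was at -1.52 (SE 0.70, adjusted p = 0.0777) in batch B. Of 21 listed genes of S100 partner proteins, 20 were tested over both batches, and 4 were higher and 7 lower in Sox2-positive cells, beside 24.9% and 32.5% of all genes. Their median was -0.02, against -0.12 over all genes. In batch A 2 of 16 were higher and 4 lower, beside 19.3% and 24.2%, and in batch B 5 of 18 were higher and 3 lower, beside 27.1% and 27.6%. For the interaction 1 of 20 passed, Anxa1, upward, beside 2.82% of all genes.

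The annexins that bind S100a10 and S100a11 behaved differently. Anxa2, the annexin that S100a10 binds, was at similar levels in all groups, with 653, 652, 566 and 581 CPM in batch A Sox2-negative, batch A Sox2-positive, batch B Sox2-negative and batch B Sox2-positive cells, and a log2 fold change of 0.01 (SE 0.07, adjusted p = 0.891) over both batches. Anxa1, the partner of S100a11, was at 360 ± 44.4 CPM in Sox2-negative and 66.1 ± 19.2 in Sox2-positive cells of batch A. The batch B means were 180 ± 9.85 and 144 ± 19.5 CPM. Its log2 fold change was -2.44 (SE 0.17, adjusted p = 1.29e-08) in batch A and -0.25 (SE 0.12, adjusted p = 0.0828) in batch B, and its interaction was 2.12 (SE 0.22, adjusted p = 2.32e-07). Between batches in Sox2-negative cells Anxa1 was at -1.001 (SE 0.16, adjusted p = 0.000128). Anxa6, the other annexin listed as a partner of S100a11, had the opposite sign, with an interaction of -0.57 (SE 0.19, adjusted p = 0.0724) that did not pass. It was higher in Sox2-positive cells of batch A (0.46, SE 0.13, adjusted p = 0.00789) and at -0.04 (SE 0.14, adjusted p = 0.828) in batch B.

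Among partners of S100a10, Trpv6, an epithelial calcium channel carried to the membrane with annexin A2, was higher in Sox2-positive cells of both batches, with 0 to 2 counts in batch A Sox2-negative libraries and 118 to 200 in Sox2-positive ones, and 0 to 21 against 94 to 415 in batch B. Its log2 fold change was 6.76 (SE 0.52, adjusted p = 2.14e-11) over both batches. The serotonin receptor gene Htr1b was also higher (3.41, SE 0.79, adjusted p = 0.000641), from at most 48 counts in any library. Ahnak, a scaffold that the annexin A2 complex binds, was lower (-0.69, SE 0.19, adjusted p = 0.00244), as was Plat, the tissue plasminogen activator (-0.60, SE 0.21, adjusted p = 0.0166). With Hltf, 3 of the 7 listed S100a10 partners were called lower over both batches and 2 higher. Myh9, the heavy chain of the non-muscle myosin that S100a4 binds, was lower in both batches, at -1.77 (SE 0.23, adjusted p = 1.61e-05) in batch A and -1.07 (SE 0.17, adjusted p = 6.22e-05) in batch B. Ppfibp1, a liprin that also binds S100a4, was at -0.49 (SE 0.18, adjusted p = 0.0315) in batch A and 0.01 (SE 0.13, adjusted p = 0.932) in batch B. Cacybp, the calcyclin-binding protein named for S100a6, was at -0.04 (SE 0.11, adjusted p = 0.806) in batch A and at 0.40 (SE 0.15, adjusted p = 0.0268) in batch B. S100a6 was lower in both. Of the 3 listed S100a6 partners, 2 were called higher in batch B, Cacybp and Anxa11, and none in batch A. Anxa11 means were 18.7 and 12.1 CPM in Sox2-negative and Sox2-positive cells of batch A, and 14.5 and 25.6 in batch B.

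The ryanodine receptors Ryr1 and Ryr2 and the calcium pump gene Atp2a2, targets of S100a1 in muscle, did not pass the test between populations. Atp2a2 was at -0.05 (SE 0.16, adjusted p = 0.816) over both batches, and the actin-capping subunit gene Capzb at 0.28 (SE 0.10, adjusted p = 0.0157). Fgf1, whose release needs S100a13, was at -0.09 (SE 0.30, adjusted p = 0.813), and Il1a was detected only in batch A Sox2-negative libraries, with at most 29 counts. Syt1, a synaptotagmin gene of the same list, was higher over both batches (3.34, SE 0.90, adjusted p = 0.00246), with at most 4 counts in Sox2-negative libraries and at most 29 in Sox2-positive ones. The receptor genes Ager and Tlr4 stayed at low levels, with means of at most 8.28 and 2.29 CPM, and neither was called.

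Finally, the genes whose log2 CPM followed each member most closely were found over the 23 libraries, by Pearson's r, as a description. These libraries share the same 4 groups, so r mostly reflects group means. S100a6 was closest to Scube1 (r = 0.98), Col6a1 and Hand2 (both 0.97), and S100a4 to Sgip1 (0.97), Aldh1a3 and Col12a1 (both 0.96). Col12a1, a collagen gene, was at 239 ± 41.5 CPM in batch A Sox2-negative cells and 7.43 ± 3.49 in Sox2-positive ones. In batch B it was at 282 ± 51.2 and 2.51 ± 2.73. It had the order of the 4 S100a4 means, which its choice by r over the same libraries favours. S100a1 was closest to Sem1, Mpc2 and Gchfr (all r = 0.96), and S100a13 to Vmn1r81, Tmsb10 and Lgals1 (all 0.95). S100a11 was closest to Rps3a2 (0.88), Psma2 (0.87) and the mitochondrial gene mt-Co1 (0.84), and S100a10 to Vamp8 (0.82), Chmp2a (0.81) and Psma2 (0.79). mt-Co1 was at 863 ± 513 CPM in Sox2-negative and 6706.5 ± 242 in Sox2-positive cells of batch B, its lowest and highest groups, as for S100a11. In batch A the 2 genes differed in direction. There mt-Co1 was at 3763 ± 500.3 CPM in Sox2-negative and 5434 ± 659 in Sox2-positive cells, and S100a11 at 288 and 241. As mt-Co1 was picked by its r, its shared groups are not a separate result. S100a16 was closest to AA465934 (0.85), Fgd5 and Ost4 (both 0.84), S100a14 to Them4 (0.87), Me1 and Grhpr (both 0.83), and S100a3 to Nudt10 (0.72), Nap1l1 (0.71) and Nat8f4 (0.70). S100a10 and S100a11 correlated with each other at r = 0.75, and at 0.41 after the group means were removed.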

How the data were processed

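Per the labels' protocols, labial cervical loops were dissociated with collagenase and neutral protease and sorted by fluorescence, and libraries followed the Smart-seq2 protocol. FastQC, Trimmomatic, Salmon and the mm10 build are named in the submitters' processing notes, without versions or settings. The authors deposited 1 table of estimated counts (expected counts, not whole numbers) for 54347 genes, which were rounded before testing. Per-sample columns left unused numbered 0. Identifiers were matched to GENCODE M21 symbols without version (54094, 99.5%).

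Counts were tested with edgeR 4.0.16 (R 4.3.3): TMM scaling, filterByExpr, quasi-likelihood test, Benjamini-Hochberg adjustment over all genes tested. Positive against negative cells had batch as a covariate, and each batch was fitted alone. A model of 4 group means gave the interaction and the batch differences. CPM is TMM-scaled, and division by exon-union length gives CPM per kb. Procedures were tested on simulated data. There the interaction test left many of the known differences uncalled. The minimum first set for the share called was not met, and conditions on the correctness of the estimates replaced it. Interactions that did not pass are therefore not shown to be absent. Alternatives were RLE and total-count scaling, DESeq2 1.42.0, limma-voom (limma 3.58.1) with quality weights, no filter, a replicate block, each library left out, and batch B libraries 1 and 2 left out. Added after seeing the data was the addition of counts of genes that share sequence. The smallest chi-square per degree of freedom over 57 within-group library pairs was 5.46, so no library was counted as a duplicate. Floors of 3 counts cover counting error only. The text names all 9 members, genes of the listed sets where they bear on a member, and the 3 genes of highest Pearson's r with each member. S100a2, outside the lists, was named after its values were seen. The members, though listed by name with no threshold, and the gene lists were chosen with earlier results of these data known. A result of the listed gene sets is not reported here.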

Additional observations from a re-analysis of the deposited data

Results flagged for a closer look

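For 4 of the 9 S100 genes the difference between Sox2-positive and Sox2-negative cells was itself different in the 2 batches, by edgeR's interaction test over 23 libraries, beside 7.04% of 17190 genes. S100a11 (1.33 on the log2 scale, adjusted p = 0.000312) and S100a10 (0.85, adjusted p = 0.00624) moved upward in batch B relative to batch A, and S100a4 (-2.09, adjusted p = 0.0342) and S100a6 (-0.997, adjusted p = 0.00321) downward. Without batch B libraries 1 and 2, S100a11 kept its call at a smaller value (0.83). The other 3 lost their calls and kept their direction, at 0.70 for S100a10, -0.91 for S100a6 and -1.956 for S100a4. Fewer libraries were then in the fit, and calls over all genes fell from 1210 to 481. All 4 batch B Sox2-negative libraries lay below all 7 Sox2-positive ones for S100a11, and batch A libraries overlapped. The batches also differed in mesenchymal and glial markers in Sox2-positive cells and in erythroid and immune markers in Sox2-negative cells, and the part of these cells was not tested. The gap between the highest or lowest library and the next, relative to the group's range, flagged none of the 36 sets of 1 gene in 1 group. That rule looks at 1 extreme library at a time and cannot flag 2 that lie apart together. For S100a11 in batch B Sox2-negative cells, libraries 1 and 2 had 102 and 113 CPM, against 218 and 203 in libraries 3 and 4.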

How the results depend on the processing

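Of 398 results for single S100 genes under alternatives other than leaving out 1 library, 367 kept their direction and their side of the threshold, 31 did not, and 6 changed sign, for which the cause was not tested. Without batch B libraries 1 and 2 the number of genes called was 1 in place of 4 for the interaction and 1 in place of 3 between batches in Sox2-negative cells. Calls over all genes fell under the same setting from 1210 to 481 and from 1924 to 754, with fewer libraries in the fit. Total-count scaling moved the median log2 fold change of all genes from -0.12 to 0.00 over both batches, and from -0.00 to -0.15 between batches in Sox2-negative cells. Sign changes without these libraries were S100a10 over both batches (-0.055), S100a3 in batch B (-0.70), S100a16 in batch B (0.29) and S100a14 between batches in Sox2-positive cells (0.12). S100a16 in batch B was 0.040 under total-count scaling, and S100a14 between batches in Sox2-positive cells was 0.33 with limma-voom. None of these 4 values had been called. With 1 library left out, the number of genes called ranged from 5 to 7 over both batches, 5 to 7 in batch A, 6 to 7 in batch B, 3 to 4 for the interaction, and 2 to 4 between batches in each population. Sign changes among those fits were in S100a3 in batch B (-0.28 to 1.49), S100a16 in batch B (-0.24 to 0.13) and S100a14 between batches in Sox2-positive cells (-0.25 to 0.21). Replicate numbers are shared by the labels of different groups, and no pairing by number was seen. Deviations of same-numbered libraries correlated at r = -0.02 to 0.04 over 10 pairs, and 1 library correlated best with its own number. The highest values were those of batch B numbers 1 (0.040) and 2 (0.044), each of which correlated best with the other's number. Deviations over all genes also carry noise between libraries, so this check cannot exclude pairing. With the replicate block, 6, 6, 6 and 3 genes were called over both batches, in batch A, in batch B and for the interaction. Over all genes, the calls were then 8795 of 17190, 5829 of 14296, 6668 of 15765 and 557 of 17190. The last of these stands in place of 1210 in the main fit. Under the block, S100a14 in batch B (1.14, adjusted p = 0.0912) and the S100a4 interaction (-1.60, adjusted p = 0.176) did not pass. The levels of S100a3, and of S100a4 and S100a14 in their lower population, rest on few counts. Smaller differences in them may have been missed at this depth, and the smallest detectable difference was not computed.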
